A study of Mus musculus with 30 samples.

Results

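Emx2, Dmrt3, Dmrta1, Dmrta2, Pax7, Fezf1, Fezf2, Foxd4 and Lmo3 were followed in mouse retinal organoids as 9 genes of 45594 in the gene table. They were chosen by name as forebrain factors present at day 4 (D4) or D7 of differentiation and lost later, so their own levels over the days selected them and are given below as a description without a test. The exception was D7 against D4, which was tested because the choice asked for no rise or fall there. The choice did use the levels of both days, and a fall after D4 can itself count as loss. The p-values of the 9 genes in that test are therefore not independent of the choice. All organoids came from a single clone of induced pluripotent stem cells (iPSCs), reprogrammed with doxycycline-inducible Oct3/4, Sox2, Klf4 and c-Myc lentiviruses from fibroblasts of wild-type Nrl-GFP mouse embryos, a strain whose reporter marks rods. The groups were iPSCs kept on feeder cells at D0, intact aggregates at D4 (36 pooled per library), and neural retina dissected from organoids at D7 (30 pooled), D10 (20 pooled) and D12, D15, D18, D22, D25 and D32 (12 pooled each), with 3 libraries a day labelled as biological replicates. Matrigel was added after plating, the medium changed at D7, D10 and D26, and oxygen was raised from 5% to 20% at D10. From D4 to D7, day, dissection and medium therefore changed together and cannot be told apart. Poly(A) RNA was sequenced, and levels are CPM, that is counts divided by a library size adjusted with TMM factors, as mean ± SD with n = 3.

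The forebrain arises from the anterior neural plate, and the eye field, telencephalon and diencephalon are set apart within it by signals from its edges. At the medial margin of the telencephalon the cortical hem and roof plate release WNT and BMP ligands, and the adjoining medial pallium expresses Emx2 and the doublesex-related DMRT factors in response to that position. The FEZ zinc finger repressors mark the rostral forebrain, Foxd4 is an early neural ectoderm factor, and Pax7 is a paired-box factor of dorsal neural tube and midbrain.

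RefSeq promoter windows on GRCm38.p6, from 250 bases before to 50 after a start site, were matched for 9 of 9 genes. The RefSeq start lay 8762 bases inside the deposited gene for Dmrta1, 560 for Pax7, 318 for Emx2 and 293 for Foxd4. The windows of these genes therefore do not cover the start of the deposited gene. The windows of Emx2 and Dmrta2 are shown because antisense genes reach into them, and those of Lmo3 and Foxd4 because these genes had opposite patterns among the D4 libraries. Capitals mark the homeobox core TAATTA, the TCF/LEF core CTTTGA and the SOX core ACAAT, each on either strand.
Emx2 (chr19:59458440-59458739, plus strand): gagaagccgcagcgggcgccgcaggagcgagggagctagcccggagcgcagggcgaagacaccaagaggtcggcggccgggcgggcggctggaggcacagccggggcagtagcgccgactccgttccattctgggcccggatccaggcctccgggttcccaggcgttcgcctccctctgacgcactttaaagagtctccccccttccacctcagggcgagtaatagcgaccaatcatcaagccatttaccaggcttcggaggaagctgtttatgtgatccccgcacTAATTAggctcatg
Dmrta2 (chr4:109977775-109978074, plus strand): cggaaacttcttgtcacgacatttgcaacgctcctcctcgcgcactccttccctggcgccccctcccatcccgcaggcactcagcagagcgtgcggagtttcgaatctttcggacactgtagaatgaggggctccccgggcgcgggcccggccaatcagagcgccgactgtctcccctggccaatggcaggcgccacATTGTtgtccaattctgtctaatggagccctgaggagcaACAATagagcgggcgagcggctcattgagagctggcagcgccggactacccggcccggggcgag
Lmo3 (chr6:138581919-138582218, minus strand): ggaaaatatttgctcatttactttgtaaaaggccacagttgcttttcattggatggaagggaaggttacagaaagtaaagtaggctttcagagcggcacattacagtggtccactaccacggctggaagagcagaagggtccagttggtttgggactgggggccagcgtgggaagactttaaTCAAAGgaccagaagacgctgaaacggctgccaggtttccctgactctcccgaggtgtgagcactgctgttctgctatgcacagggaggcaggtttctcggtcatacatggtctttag
Foxd4 (chr19:24900967-24901266, minus strand): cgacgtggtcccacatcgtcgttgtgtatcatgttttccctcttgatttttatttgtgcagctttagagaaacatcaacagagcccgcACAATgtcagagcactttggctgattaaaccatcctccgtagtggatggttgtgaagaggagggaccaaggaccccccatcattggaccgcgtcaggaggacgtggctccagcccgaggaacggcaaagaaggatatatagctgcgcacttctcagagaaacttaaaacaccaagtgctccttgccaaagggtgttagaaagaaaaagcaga

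TAATTA was in 1 of the 9 windows (Emx2) and in 5.29% of all 32851 windows. CTTTGA was in the windows of Fezf2 and Lmo3, and in 16.0% of all. ACAAT was in those of Dmrta2, Fezf1 and Foxd4, and in 31.0% of all. The paired SMAD sequence GTCTNGAC stood in the window of Dmrta1 and in 1.85% of all, and the shorter SMAD core CAGAC in those of Dmrt3 and Pax7 and in 49.6% of all. The E-box CANNTG was in 5 of the 9 and in 72.3% of all. No motif was shared by all 9 genes, and a match of letters is not a binding site. The windows of Emx2 and Dmrta2 each held 26 CpG dinucleotides, against a median of 7 over all windows.

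The libraries held 16.77 to 24.53 M counts. Among the D4 libraries, replicate 3 stood apart from replicates 1 and 2 in the following marker sums. The summed level of 6 pluripotency markers was 333 CPM in D4 replicate 1, 604 in replicate 2 and 54.2 in replicate 3, while that of 8 neural retina markers was 217, 177 and 819. Replicate 3 thus lay nearer to the D7 libraries, whose sums were 34.0 to 43.8 for pluripotency and 805 to 999 for neural retina. D4 replicate 2 also carried 25.6% of its counts on ribosomal RNA-like genes, against 0.0378% and 0.173% in the other two. Tests, bounds and list counts on D4 that moved without replicate 3 are therefore also given without it. The 8 neural retina markers were all detected on every day, and summed to 30.7 to 32.7 CPM at D0 and to 2114 to 2317 at D10. By the share of Rpl3 counts on copies of this ribosomal protein gene, 12 libraries (all of D0 and D7, and replicate 2 of D10 to D25) stood apart from the other 18. This split therefore coincides with the day between D0 and D4 and between D4 and D7.

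Emx2 (ENSMUSG00000043969, chromosome 19, 59458372 to 59465357, plus strand, GRCm38.p4), a homeobox factor of the medial and caudal cortex, was highest at D7. It stood at 55.7, 47.5 and 36.9 CPM in the D7 libraries, and at 16.3, 14.0 and 55.5 CPM in the D4 libraries. Replicate 3 of D4 lay within the D7 range and the other D4 libraries lay below it. Emx2 then stood at 7.72 ± 1.86 CPM at D10 and at 0.323 ± 0.0748 at D25, or 0.692% of its D7 mean. The level at D0, 0.848 ± 0.394 CPM, overlapped those of D15, D22 and D32.

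The 3 DMRT genes, named for the zinc finger DM domain, also had their highest means at D7. Dmrt3 (ENSMUSG00000042372, chromosome 19, 25610537 to 25623920) stood at 31.1, 22.8 and 21.9 CPM at D7 and at 2.62, 3.64 and 43.2 at D4. Its D4 replicate 3 was above every D7 library, and by D25 it was at 0 in 2 libraries and at 0.145 CPM in the third. Dmrta1 (ENSMUSG00000043753, chromosome 4, 89679436 to 89694772) stood at 36.1, 20.3 and 13.6 CPM at D7 and at 0.706, 0.531 and 11.0 at D4. It was the DMRT gene with the largest share left at D10, 35.9% of its D7 mean, against 16.3% for Dmrt3 and 28.0% for Dmrta2. The deposited gene value of Dmrta1 exceeded the sum of its transcripts by up to 1.51 times at D7, where that sum, compared after the data were seen, gave a mean of 17.6 CPM. Dmrta2 (ENSMUSG00000047143, chromosome 4, 109978053 to 109983687) was the lowest of the 3, with 9.10, 8.91 and 8.40 CPM at D7 and 0.0569, 0.396 and 9.21 at D4. Its D7 libraries were close together (8.80 ± 0.358 CPM) and its D4 libraries were far apart (3.22 ± 5.19).

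Lmo3 (ENSMUSG00000030226, chromosome 6, 138362918 to 138581968, minus strand) encodes a LIM-only protein, which binds other proteins and not DNA. It had no count at D0, and stood at 17.6, 18.8 and 16.3 CPM at D7, at least 320-fold above the level that 3 counts over the D0 libraries would give. At D4 it stood at 1.29, 1.65 and 23.9 CPM, with replicate 3 above all D7 libraries, and the gene value was up to 1.63 times the sum of its transcripts there. It was at 3.67 ± 1.25 CPM at D10 and remained detected in every later library, with 0.464 ± 0.166 CPM at D32.

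At D12 replicate 2 was the lowest library for Emx2, Dmrt3, Dmrta1 and Dmrta2. Emx2 stood there at 0.586 CPM against 3.23 and 4.04 in replicates 1 and 3. Dmrt3 stood at 0.207 against 1.81 and 1.82, and Dmrta1 at 1.41 against 6.06 and 4.60. Lmo3, with 1.78 against 1.65 and 1.62 CPM, did not share this pattern. That library belongs to the smaller set by Rpl3 copies, and its 8 pigment epithelium markers summed to 737 CPM against 452 and 481. The part of either in these levels was not tested.

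Pax7 (ENSMUSG00000028736, chromosome 4, 139737062 to 139833528, minus strand) was high again late. It stood at 25.25, 18.0 and 15.0 CPM at D7 and at 0, 0.0938 and 0.545 at D18. At D25 it stood at 8.93, 10.33 and 8.72 CPM, and at D32 at 3.36, 3.85 and 4.12. The D25 mean of 9.33 ± 0.874 was 48.1% of the D7 mean and above that of D4 (6.16 ± 4.69), though the D25 and D4 libraries overlapped. Late differences were smaller for Emx2, with 0.548 to 2.19 CPM at D32 against 0.265 to 0.408 at D25, and for Dmrta1, with 0.622 to 1.65 at D32 against 0.276 to 0.351 at D22. The description as lost later therefore covers D12 to D18 for Pax7 and not the last days. Pax7 also marks muscle satellite cells. Myod1 and Myf5 were at 0 in the D25 libraries and 6 muscle markers summed to 0.407 to 0.828 CPM. Neural crest markers, another site of Pax7 expression, summed to 13.8 to 24.8 CPM at D18 and 55.2 to 91.3 at D25, with Foxd3 at 0 at D25. The part of either cell type in the Pax7 level was not tested.

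Fezf1 (ENSMUSG00000029697, chromosome 6, 23245044 to 23248362, minus strand), a repressor of the rostral forebrain, was an early gene. It had no count at D0 and stood at 30.2, 18.5 and 38.9 CPM at D4, at least 530-fold above the D0 floor and at least 440-fold without D4 replicate 3. At D7 it stood at 8.23, 5.15 and 5.00 CPM, below all D4 libraries, and at D10 at 1.02 ± 0.375.

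Fezf2 (ENSMUSG00000021743, chromosome 14, 12341892 to 12345865, minus strand), its paralog and a factor of subcortically projecting cortical neurons, went against the description. It stood at 39.0, 22.8 and 71.1 CPM at D4 and at 35.1, 36.4 and 40.9 at D7, but its highest mean was at D15, with 55.4, 57.5 and 71.5 CPM. At D18 it was at 47.2 ± 3.81 CPM, at D22 at 18.25 ± 0.987 and at D32 at 3.71 ± 0.323, or 6.03% of its D15 mean. The D15 libraries lay above all of D18, while D18, D4, D7, D10 and D12 overlapped as neighbours in that order. The other 8 genes had their highest mean at D4 or D7.

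Foxd4 (ENSMUSG00000051490, chromosome 19, 24898965 to 24901309, minus strand), a forkhead factor of early neural ectoderm, was the most restricted in time. It stood at 56.7, 53.6 and 2.10 CPM at D4. All other days together held 1 count, in D7 replicate 1, and the 3 libraries of every other day were at 0. The D4 mean was at least 680-fold above the D0 floor, and at least 1000-fold without replicate 3. From 1726 counts at D4 against 1 at D7, the ratio scaled for depth was 1977, with an exact 95% interval of 354 to 78120 that covers counting error only. Foxd4 was thus high in the 2 D4 libraries with the most pluripotency marker RNA, which was mainly Pou5f1, and 26.3-fold lower in replicate 3. In bulk RNA, fewer cells of a type and less RNA per cell cannot be told apart, here and for all 9 genes.

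**Figure D1:**
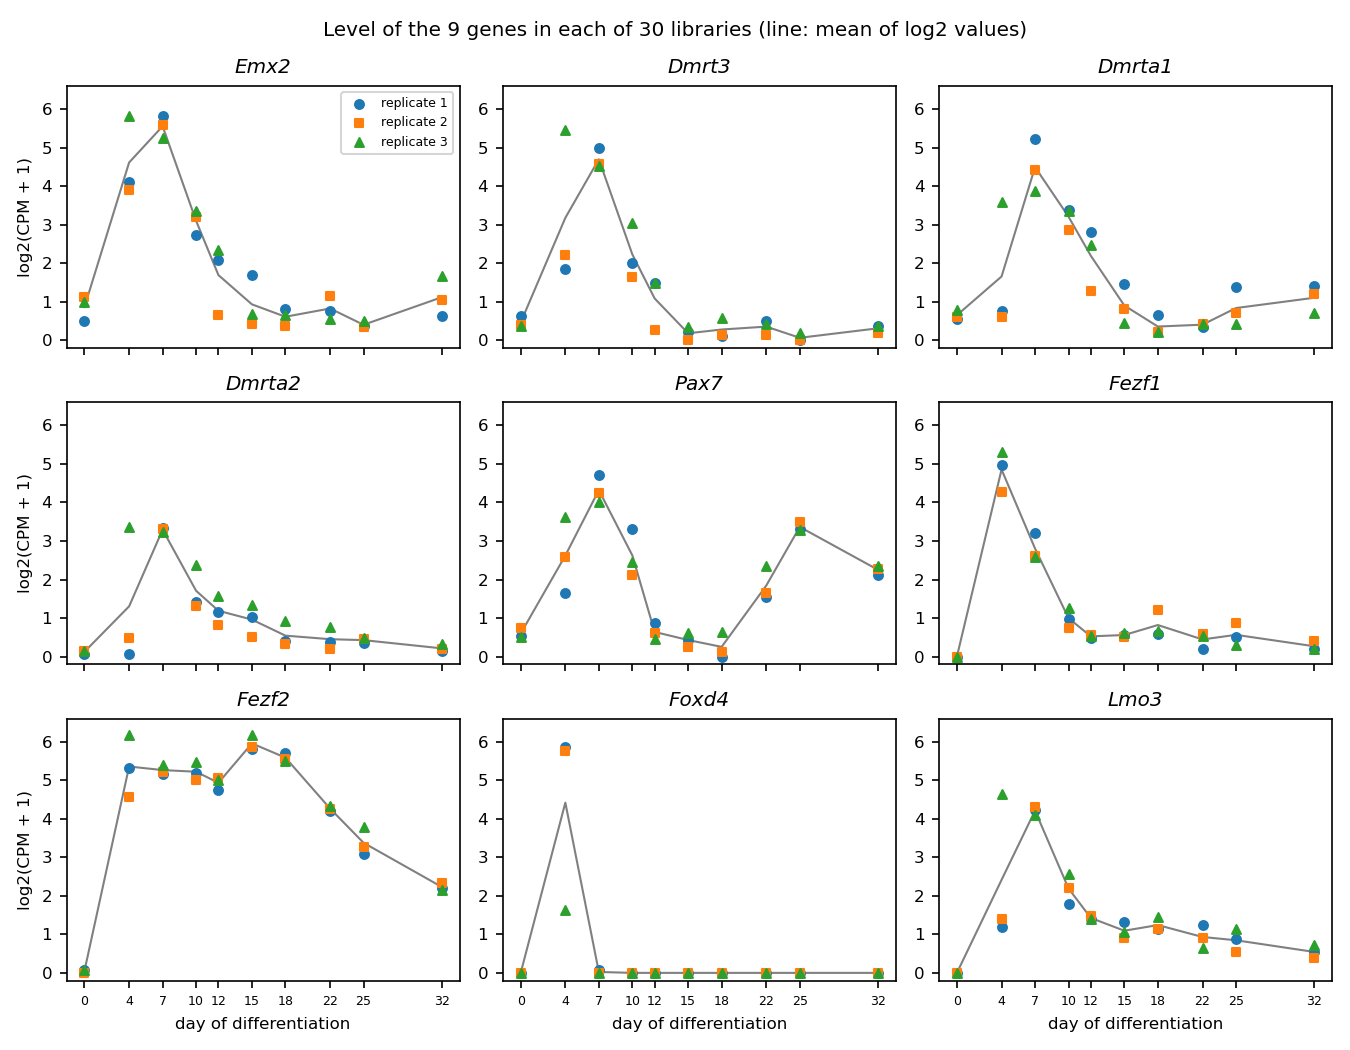
Level of each gene as log2(CPM + 1) against the day of differentiation, with 1 point per library (shape and colour give the replicate) and a line through the mean of the 3 log2 values. Emx2, the DMRT genes and Lmo3 peak at D7, Fezf1 and Foxd4 at D4, Pax7 returns to 9.33 CPM at D25 and Fezf2 is highest at D15 with 61.5 CPM.

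Divided by transcript length, the levels can be compared between genes. At D7 Emx2 was highest with 19.0 ± 3.84 CPM per kb, followed by Fezf2 with 16.3 ± 1.31 and Dmrt3 with 10.6 ± 2.11. Emx2 and Fezf2 overlapped over libraries, as their values spanned 15.0 to 22.7 and 15.23 to 17.7 CPM per kb. Lmo3 (7.103 ± 0.522), Dmrta1 (6.17 ± 3.07), Pax7 (3.39 ± 0.920), Dmrta2 (3.01 ± 0.123) and Fezf1 (2.54 ± 0.757) followed. At D4 the highest means were those of Fezf2 (19.2 ± 10.7), Foxd4 (16.0 ± 13.1), Fezf1 (12.11 ± 4.24) and Emx2 (11.6 ± 9.48 CPM per kb), and all of these overlapped.

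The split among the D4 libraries differed in size from gene to gene. D4 replicate 3 exceeded the mean of replicates 1 and 2 by 40.7-fold for Dmrta2, 17.8-fold for Dmrta1, 16.2-fold for Lmo3 and 13.8-fold for Dmrt3. The ratio was 3.66 for Emx2, 3.15 for Pax7, 2.30 for Fezf2 and 1.60 for Fezf1. Replicates 1 and 2 of D4 lay below every D7 library for 6 genes (Emx2, the 3 DMRT genes, Pax7 and Lmo3). Among genes of the anterior neural plate list with at least 5 CPM in a D4 or D7 library, D4 replicate 3 was above both other D4 libraries for 6 of 17 and below both for 10. In the list of hem, roof plate and WNT/BMP signals it was above both for 19 of 24 and below both for 4.

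**Figure D2:**
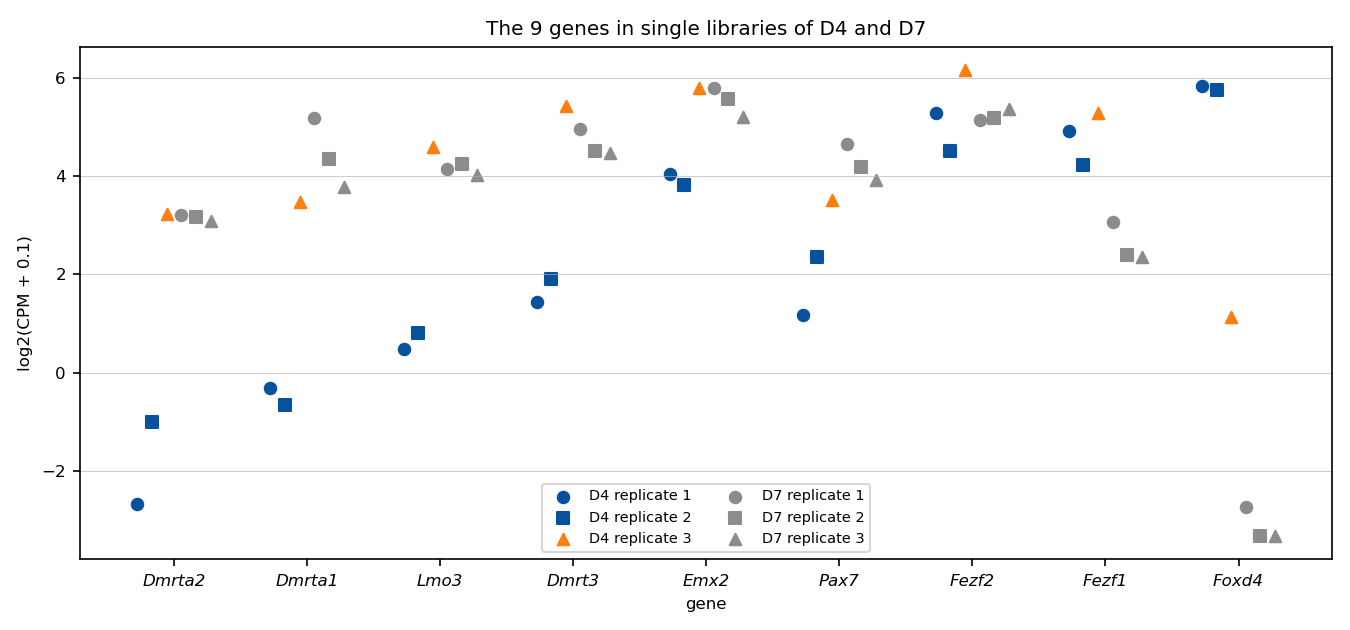
The 9 genes in the single libraries of D4 and D7, as log2(CPM + 0.1), with D4 replicate 3 in orange, the other D4 libraries in blue and D7 in grey. For Dmrta2, Dmrta1, Lmo3 and Dmrt3 the orange point stands 13.8- to 40.7-fold above the mean of the blue points, and for Foxd4 it stands 26.3-fold below it.

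How did the genes change from D4 to D7? In edgeR's quasi-likelihood test over 19897 genes with Benjamini-Hochberg adjustment, 2 of the 9 rose and 2 fell at an adjusted p below 0.05, where 20.0% of all tested genes rose and 22.8% fell. These shares are near the background. Dmrta1 rose by 2.50 on the log2 scale (SE 0.75, adjusted p = 0.0088) and Pax7 by 1.65 (SE 0.50, adjusted p = 0.01). Fezf1 fell by 2.25 (SE 0.38, adjusted p = 6.4e-05). Foxd4 fell as well (adjusted p = 0.00056), and its fitted change depends on the prior count because D7 held a single count. The Foxd4 call was not made by DESeq2 (log2 -11.0, adjusted p = 0.17) or with the Rpl3-copy set as a term (log2 -10.58, adjusted p = 1.0).

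Emx2, Dmrt3, Dmrta2, Lmo3 and Fezf2 did not pass with all libraries. Their log2 differences, D7 minus D4, were 0.70 (SE 0.54, adjusted p = 0.31), 0.61 (SE 0.72, adjusted p = 0.52), 1.43 (SE 0.78, adjusted p = 0.14), 0.96 (SE 0.63, adjusted p = 0.23) and -0.25 (SE 0.25, adjusted p = 0.45). In the fit without D4 replicate 3, 4 of these passed. Emx2 differed by 1.63 (SE 0.57, adjusted p = 0.02), Dmrt3 by 3.03 (SE 0.67, adjusted p = 0.00057), Dmrta2 by 5.40 (SE 0.75, adjusted p = 2e-06) and Lmo3 by 3.59 (SE 0.42, adjusted p = 2.5e-07), so that 8 of 9 passed, where 24.6% of the 20430 genes tested in that fit rose and 25.0% fell. That library was left out because its markers lay near D7. For genes with the same pattern, leaving it out by itself widens the difference and narrows the D4 spread. The 9 genes were also chosen by their levels on these days. The count of 8 therefore describes the dependence on that library and is not a separate result. With all libraries Dmrt3 (2.50, adjusted p = 0.037) and Dmrta2 (2.46, adjusted p = 0.041) also passed with the Rpl3-copy set as a term, and Dmrt3, Dmrta2 and Lmo3 passed with limma (adjusted p = 0.023, 0.0013 and 0.0036). The differences shrank without D4 replicate 2, the library rich in ribosomal RNA-like counts. There Emx2 differed by 0.39 (adjusted p = 0.65), Dmrt3 by 0.16 (adjusted p = 0.9) and Dmrta2 by 0.95 (adjusted p = 0.38). Without D4 replicate 1, Dmrt3 differed by 0.12 (adjusted p = 0.92). In the fit without D4 replicate 3, Dmrta1 differed by 5.23 (SE 0.75, adjusted p = 3.1e-06) and Pax7 by 2.46 (SE 0.54, adjusted p = 0.00052). The falls of Fezf1 (adjusted p = 0.00027) and Foxd4 (adjusted p = 4.7e-07) passed in that fit too. Fezf2 passed neither with all libraries nor without D4 replicate 3, where it changed sign, to 0.28 (SE 0.21, adjusted p = 0.27). The call of Pax7 was lost without D4 replicate 1 (adjusted p = 0.06) and without D7 replicate 1 (adjusted p = 0.051). In a fit of the 6 libraries of D4 and D7 alone, neither Dmrta1 (2.51, adjusted p = 0.1) nor Pax7 (1.66, adjusted p = 0.055) passed. Emx2, Dmrt3, Dmrta2 and Lmo3 did not pass in that fit either (adjusted p = 0.31, 0.64, 0.38 and 0.47).

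**Figure D3:**
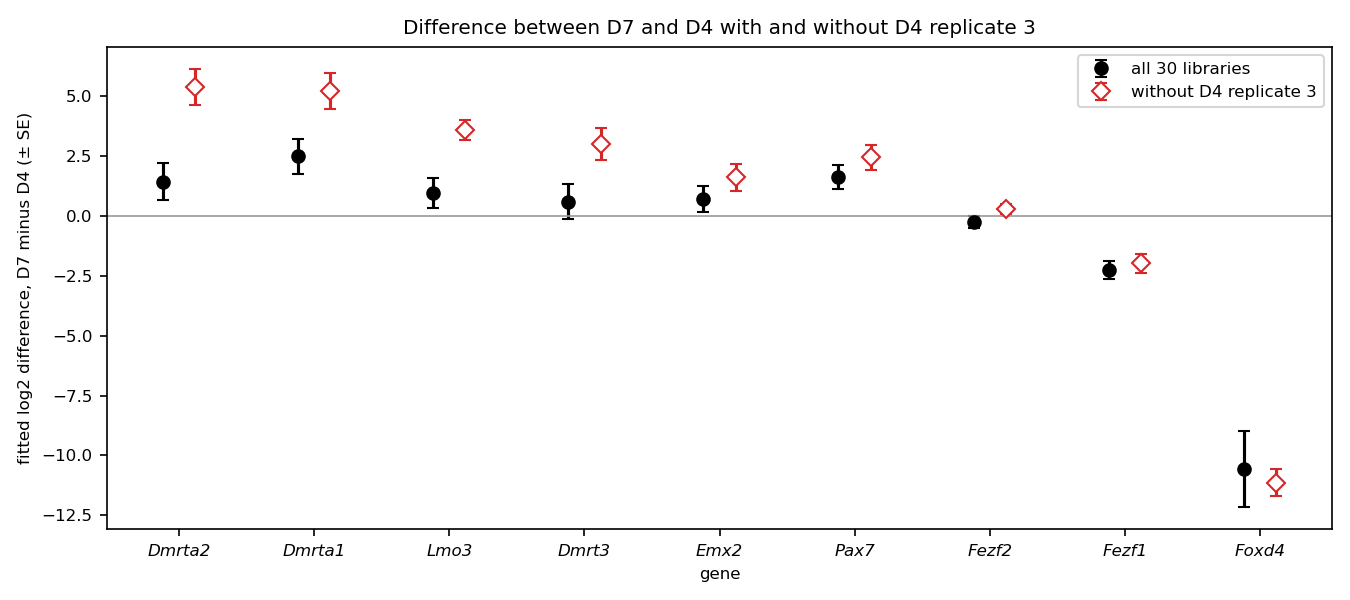
Fitted log2 difference between D7 and D4 (D7 minus D4) with its SE, from all 30 libraries (filled circles) and without D4 replicate 3 (open diamonds). Dmrta2 moves from 1.43 to 5.40 and Dmrt3 from 0.61 to 3.03, while Fezf1 stays near -2 (-2.25 and -1.98).

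Antisense genes lie beside Emx2 and Dmrta2, and no source used here says if strand entered the counting. Emx2os (chromosome 19, 59425104 to 59458635) overlaps the deposited Emx2 gene by 264 bases, so reads of the 2 could be confused there if strand was not used. It stood at 1.68, 0.952 and 6.09 CPM at D4 and 5.17 ± 0.836 at D7, again with D4 replicate 3 highest. Dmrta2os, which overlaps the deposited Dmrta2 gene by 0 bases, stood at 0, 0 and 1.27 CPM at D4 and at 1.33 ± 0.276 at D7. Both antisense genes had their highest mean on the same day as their partner.

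Transcript use, which did not enter the choice of genes, could be compared between D4 and D7 for Emx2 and Pax7, the genes with several transcripts and at least 20 counts in each library. The longest Emx2 transcript, Emx2-001, held 75.4% ± 7.80 (SD, n = 3) of the gene's counts at D4 and 69.1% ± 7.83 at D7 (exact two-sided permutation p = 0.4). Pax7-001 held 94.4% ± 1.26 and 95.4% ± 0.628 (exact permutation p = 0.3). With 3 libraries against 3 the smallest p possible is 0.1. The short protein-coding transcript Pax7-002 held 5.62% at D4, 4.57% at D7 and 7.76% at D10. When Pax7 returned it was at 0 of 174 counts at D22, 0 of 644 at D25 and 0 of 254 at D32, which allows shares of up to 1.72%, 0.466% and 1.18% by counting error alone. This contrast of early and late Pax7 was chosen after its values were seen and has no test. For Lmo3 at D7, Lmo3-004 held 39.6% ± 10.8 and Lmo3-001, the transcript whose start at 138581968 lies in the printed promoter window, 30.8% ± 6.43.

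The genes followed related but not identical courses. Over the 30 libraries, Pearson's r of log2(CPM + 1) for the 36 pairs had a median of 0.60 and ran from -0.11 (Dmrta1 with Foxd4) to 0.957 (Emx2 with Dmrt3). The 10 pairs of Emx2, Dmrt3, Dmrta1, Dmrta2 and Lmo3, a grouping made after the values were seen, lay between 0.817 and 0.957. Fezf1 was nearest to Emx2 (0.810) and Foxd4 to Fezf1 (0.741). Fezf2 reached at most 0.589 and Pax7 at most 0.647. These values describe 30 libraries that share days and are not independent.

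Among 14338 other genes with a mean of at least 5 CPM on their highest day, the closest to Dmrt3 was Wnt8b, a WNT ligand of the cortical hem (r = 0.957), then Emx2os (0.952) and Wnt1 (0.943). Wnt8b was also among the 3 closest of Dmrta1 (0.924, with Bmp7 at 0.921 and Wnt3a at 0.911), Dmrta2 (0.918, after Tmem132c and Pantr1) and Lmo3 (0.922, with Emx2os at 0.938). Emx2 was closest to Abcg5 (0.944), Prtg (0.943) and Rfx4 (0.936). Fezf1 was closest to Lhx5, a LIM homeobox factor of the early forebrain (0.965), then to Irs4 and Setd7. Foxd4 was closest to Fgf5, a growth factor gene of epiblast (0.977), then to Gm12666 (0.964) and Hesx1, a homeobox repressor of the anterior neural plate (0.931). Fezf2 was closest to H2afy2 (0.945), Jam3 and Rnf144a, which all had their highest mean at D12. Pax7 was closest to Bves (0.845), Arl4c and Gria3, the last of which was highest at D32.

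Genes other than the 9 were taken as 8 lists with 117 tested genes, and the comparisons after D4 share the D7 libraries. The lists cover forebrain and midbrain regions, WNT, BMP, FGF and SHH signalling, and family relatives of the 9 with LMO partners. Counts over all lists are therefore not counts of forebrain genes alone. From D0 to D4, 58 rose and 20 fell, where 27.0% of all tested genes rose and 24.8% fell. With the Rpl3-copy set as a term, 52 rose and 21 fell, where 4758 of all tested genes rose and 4292 fell. Without D4 replicate 3, 51 rose and 27 fell, against 26.3% and 25.9% of all genes. In the anterior neural plate list 14 of 17 rose and 0 fell, with the same counts without that library. Six3, a factor of eye and forebrain, stood at 69.3 ± 26.04 CPM at D4 against 0.0568 ± 0.0983 (log2 10.15, SE 0.46, adjusted p = 5.3e-15). Lhx5 rose to 40.3 ± 3.53 CPM and Wnt1, with no count at D0, was at least 240-fold higher, or at least 94-fold without D4 replicate 3. In the FGF and SHH list 9 of 13 fell, among them Fgf17, a rostral growth factor, by 6.88 on the log2 scale (SE 0.63, adjusted p = 1.7e-09). The D0 libraries are iPSCs on feeder cells, so these falls start from that mixture and not from forebrain. Over the same step 6 fibroblast and feeder markers went from sums of 485 to 1287 CPM to sums of 40.2 to 88.3. The part of feeder cells or iPSCs in the falls was not tested. Sox2 did not pass (-0.52, adjusted p = 0.067).

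From D4 to D7 19 of 27 genes of the hem, roof plate and WNT/BMP list rose and 0 fell (median log2 1.87 against -0.007 over all genes), and 20 rose and 1 fell without D4 replicate 3. Wnt2b rose from 1.35 ± 0.911 to 51.6 ± 4.98 CPM (log2 5.21, SE 0.33, adjusted p = 2.1e-11), and Rspo3 and Rspo2, which strengthen WNT signalling, to 53.8 ± 10.7 and 79.8 ± 17.6 CPM. Without D4 replicate 3 the log2 differences went from 5.21 to 5.93 for Wnt2b, from 4.92 to 5.84 for Rspo3 and from 4.17 to 7.79 for Rspo2. Wnt2b is also made at the margin of the eye, and over the same step the 8 pigment epithelium markers went from sums of 5.87 to 35.5 CPM to sums of 830 to 1009, with Rpe65 at 0 at D7. Their part in the WNT/BMP change was not tested. Hesx1 fell from 91.2 ± 87.2 CPM, and Lhx5 from 40.3 ± 3.53 to 9.41 ± 0.829 (adjusted p = 7.4e-05). Over all 8 lists 46 rose and 12 fell, and without D4 replicate 3, 57 rose and 17 fell, against 24.6% and 25.0% of all genes.

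From D7 on the same list turned, with 11 of 27 genes down and 0 up by D10, where 17.8% of all tested genes fell and 20.0% rose. The count was 6 without D7 replicate 1 or D10 replicate 1 and 7 without D10 replicate 2, and the 6 libraries of D7 and D10 alone gave 16 down and 3 up. By D18 23 were down and 1 up (median log2 -3.51), against 22.23% and 26.8% of all genes. Wnt8b fell from 139 ± 33.5 CPM at D7 to 0.786 ± 0.919 at D18 (log2 -7.46, SE 1.19, adjusted p = 1.1e-05), Wnt3a from 6.16 ± 2.27 to 0.0491 ± 0.0851 and Rspo1 from 35.2 ± 16.1 to 0.479 ± 0.0898. The gene that rose was Ttr, a choroid plexus and pigment epithelium transcript, to 54.5 ± 56.4 CPM. Of 21 diencephalon and midbrain genes 11 fell by D10 and 13 by D18, with Tal2 going from 54.7 ± 10.5 CPM to 1.20 ± 0.273 at D10 (adjusted p = 4.1e-09). The subpallium list moved the other way, with 4 of 7 genes up at D10 and 5 at D18. Dlx1, which is also used by retinal interneurons and ganglion cells, rose from 0.326 ± 0.270 to 25.8 ± 4.42 CPM at D10 (adjusted p = 1.3e-11). Neurog2, a proneural factor of pallium and retina, rose to 46.4 ± 3.84 CPM at D10 and 124 ± 46.0 at D18. Pax6 did not pass in either step (adjusted p = 0.19 and 0.33).

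**Figure D4:**
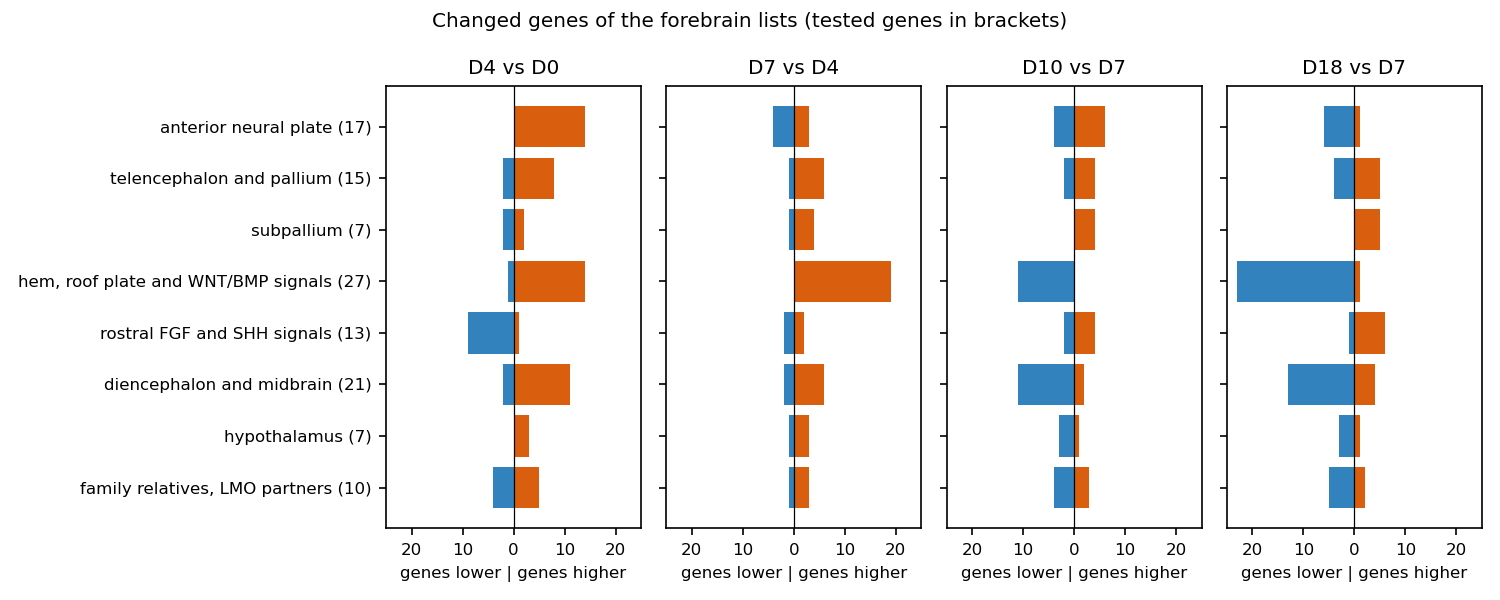
Number of genes in each of the gene lists (rows, with the number tested in brackets) that were higher (orange, to the right) or lower (blue, to the left) in 4 comparisons at an adjusted p below 0.05. The hem, roof plate and WNT/BMP list has 19 genes higher at D7 against D4 and 23 lower at D18 against D7.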

How the data were processed

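The submitters' processing notes name Trimmomatic 0.36 (trimming), kallisto 0.42.4 (pseudoalignment), edgeR and the build GRCm38.p4. The authors deposited an estimated count per gene, an estimated count per transcript, and a normalised signal per gene (CPM). How transcripts were summed to genes and whether strand was used are not given in the sources used here. Columns that fit no listed sample (3 in each of 3 tables, 9 in total) were left out. The members and gene lists were chosen with earlier results of these data known.

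Rounded gene estimates entered edgeR 4.0.16 under R 4.3.3: filterByExpr (minimum count 10, minimum total 15), TMM factors (0.524 to 1.162), a mean per day over 30 libraries, the quasi-likelihood F test, and Benjamini-Hochberg adjustment over 19897 genes with a threshold of 0.05. The scripts were tested on simulated data. P-values rest on the spread between libraries of the same day, with the estimate for a gene shared over all days. All libraries came from a single clone. Where D4 spread more than other days, the shared estimate can understate its spread. Dmrt3, for example, had an SD of 23.15 CPM at D4 and 5.03 at D7. Depth was 16.77 to 24.53 M counts, so a day without counts is given as a bound from 3 counts over its libraries. List genes named were up to 3 per direction with the largest fold, libraries that do not overlap and at least 5 CPM, plus the highest that did not pass. Alternatives were RLE factors, library size only, DESeq2 1.42.0, limma 3.58.1 on the deposited CPM, 2 filters, a replicate block, the Rpl3-copy set as a term, the pair of days alone, and each library left out. Promoter sequences were those of RefSeq, and proteins were not analysed. Some items are not reported here.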

Additional observations from a re-analysis of the deposited data

How the results depend on the processing

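Between D7 and D4, 8515 genes changed over all libraries and 4583 in a fit of those 6 libraries alone. Of the 9 genes, 4 changed over all libraries, 2 in the fit of the pair, 7 with limma, and 3 to 8 when each library was left out in turn, with 8 without D4 replicate 3. The cause was not tested. Fezf2 turned from -0.25 to 0.047 with library size only, and ran from -0.55 to 0.28 with each library left out, the latter without D4 replicate 3. Otx2, whose difference was -0.02, turned to 0.40 with library size only and ran from -0.13 to 0.069 with each library left out, above 0 without D4 replicate 1, D7 replicate 1 or D7 replicate 2. Library size only moved the median of all genes by construction, to 0.40 at D7 vs D4 (6550 higher and 1921 lower, against 3977 and 4538), 0.16 at D10 vs D7 (4198 and 2273, against 3979 and 3543) and -0.18 at D4 vs D0 (3664 and 5833, against 5380 and 4940). Between the days compared, deviations from the day mean correlated by -0.18 to 0.33 for libraries of the same replicate number. Libraries of different numbers were not compared in this way. From D10 to D25 the number did go with the Rpl3-copy set, as replicate 2 stood apart on each of these days. With the replicate block 8647 genes changed at D7 vs D4, and Dmrta2 passed (2.27, adjusted p = 0.0069). Median likeness of the 36 pairs was 0.60, 0.54 with a pseudocount of 0.1 and 0.61 without D4 replicate 2. Genes with comparable transcript shares were 2, and 4 without the minimum of 20 counts. Over the alternatives, 117 of 135 refits of the 9 genes and 410 of 420 of the named list genes kept their direction and their side of the threshold. Most named list genes were picked for large folds and libraries that do not overlap. Their count was therefore favoured by the choice and does not speak for the lists as a whole. Depth limits Foxd4 after D4 and Dmrta2 at D0, where a level rests on few counts.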
